A study of Mus musculus with 9 samples.

Results

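The period, cryptochrome and Clock genes were followed in the medial prefrontal cortex (mPFC) of mice through 8 genes named by symbol: Per1, Per2, Per3, Cry1, Cry2, Clock, Npas2 and Ciart. All 8 were found among 35125 gene rows, and all 8 were among the 14013 genes kept after a filter on low values, which they passed in each of the 9 libraries. RNA was measured in 3 groups of 3 libraries, as FPKM, in which the fragments of a gene are divided by its transcript length and by the total of its library. Control mice are labelled as not stressed, mice of the CUS model as stressed (CUS stands for chronic unpredicted stress in the series text), and mice of the running model as exercised. The series text places running in mice exposed to the stress, while the label of the running group names only the exercise. The labels of all 9 libraries also contain 4 week and week 8 but do not say what was timed. The sources used here do not give strain, sex, age, the hour of tissue collection or whether each library is a separate animal. The p-values therefore measure only how these libraries spread, and that spread may be technical.

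The circadian clock of mammalian cells is a loop of transcription and repression. CLOCK, or its close relative NPAS2, pairs with BMAL1 (the product of Arntl) and binds E-box sequences in the promoters of Per, Cry and Ciart genes, and the PER and CRY proteins, together with CHRONO (the product of Ciart), then return to the nucleus and inhibit that activator. Per1 and Per2 also respond acutely to signals that reach CREB and to glucocorticoids. In the cortex of rodents these transcripts vary over the day, and Npas2 is known for its expression in the forebrain.

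The promoters of the repressor genes are shown first, because the loop acts through letters in them. RefSeq promoter sequence (GRCm38.p6, the assembly behind mm10) was found for 7 of the 8 genes, all but Per2, with 10 start sites in all. The 250 bases before each start were searched on both strands for 6 motifs. These were the E-box CACGTG, the E-prime box CACGTT, the core TGACG of the cyclic AMP response element (CRE), the full CRE TGACGTCA, which contains that core, the ROR and REV-ERB core AGGTCA, and the D-box TTATGNAA. Of 32851 promoters of the same length, 6.02% held CACGTG, 3.85% CACGTT, 17.8% TGACG, 1.55% TGACGTCA and 3.07% TTATGNAA, and 4607 promoters held AGGTCA. Each sequence below is written from 5′ to 3′ on the strand of its gene, without bases of annotated exons, and capitals mark the matches, including those read on the other strand.

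Per1 first start, chr11:69098699-69098947, plus strand: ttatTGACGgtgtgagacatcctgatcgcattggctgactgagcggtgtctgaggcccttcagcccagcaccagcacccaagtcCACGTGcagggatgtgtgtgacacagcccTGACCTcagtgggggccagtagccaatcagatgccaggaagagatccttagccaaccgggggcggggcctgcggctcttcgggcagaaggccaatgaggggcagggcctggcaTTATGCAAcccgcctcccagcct
Per1 second start, chr11:69099902-69100151, plus strand: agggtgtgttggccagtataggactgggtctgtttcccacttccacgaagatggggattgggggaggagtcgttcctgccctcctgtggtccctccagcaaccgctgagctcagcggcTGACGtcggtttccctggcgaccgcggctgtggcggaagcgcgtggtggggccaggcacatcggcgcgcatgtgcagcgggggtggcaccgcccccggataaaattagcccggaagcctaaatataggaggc
Per3, chr4:151044666-151044915, minus strand: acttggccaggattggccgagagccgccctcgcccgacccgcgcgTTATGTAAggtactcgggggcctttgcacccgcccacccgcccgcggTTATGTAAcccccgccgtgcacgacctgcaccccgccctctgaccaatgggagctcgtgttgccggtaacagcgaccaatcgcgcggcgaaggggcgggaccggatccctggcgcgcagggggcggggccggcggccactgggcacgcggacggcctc
Cry1, chr10:85185065-85185304, minus strand: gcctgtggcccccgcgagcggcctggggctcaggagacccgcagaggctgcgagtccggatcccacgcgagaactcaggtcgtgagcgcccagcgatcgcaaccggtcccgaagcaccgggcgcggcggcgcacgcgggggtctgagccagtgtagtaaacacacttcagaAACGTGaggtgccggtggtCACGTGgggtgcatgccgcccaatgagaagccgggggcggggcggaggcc
Cry2, chr2:92434070-92434319, minus strand: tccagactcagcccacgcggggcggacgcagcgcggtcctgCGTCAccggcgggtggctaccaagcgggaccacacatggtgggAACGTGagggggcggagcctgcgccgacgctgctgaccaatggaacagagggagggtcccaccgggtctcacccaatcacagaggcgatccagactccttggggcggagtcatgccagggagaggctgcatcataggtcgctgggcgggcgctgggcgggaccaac
Ciart, chr3:95882252-95882478, minus strand: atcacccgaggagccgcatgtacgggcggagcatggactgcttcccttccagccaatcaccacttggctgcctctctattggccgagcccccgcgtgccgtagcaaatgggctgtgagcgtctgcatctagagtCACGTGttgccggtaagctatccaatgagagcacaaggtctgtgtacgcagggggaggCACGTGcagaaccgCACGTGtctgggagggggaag

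The first Per1 start had an E-box that began 166 bases before it, a CRE core at 246, an AGGTCA on the other strand at 137 and a D-box at 24, and the second start had a CRE core at 132. Ciart held 3 E-boxes, at 116, 58 and 44 bases before its start, the most of the 7 genes. Cry1 held an E-box at 60 and an E-prime box at 79, and also a CRE core at 8 bases before the start, outside the printed stretch. Cry2 had an E-prime box at 166 and a CRE core at 209, and Per3 had 2 D-boxes, at 205 and 158. In the window of Npas2 0 of the 6 motifs matched, and 1 of the 3 Clock windows held a single AGGTCA, at 119 bases. A full CRE was found in 0 of the 10 windows. These matches are letters in a short window and not measured binding.

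The tissue label was checked against markers. The glutamatergic cortical neuron list had a summed level between 1959 and 2124 FPKM, Slc17a7 lay between 696 and 768 FPKM, and Tbr1, a deep-layer cortical factor, between 38.0 and 51.2 FPKM. Of 11 genes of the suprachiasmatic nucleus, which holds the master clock, and of the hypothalamus, the summed level was between 2.66 and 7.65 FPKM, and Six6, a defining factor of the former, was at most 0.01 FPKM. Over all genes, the FPKM of 8 libraries added up to 370441 to 393663 and that of CUS replicate 3 to 423257, and each library held 17071 to 17280 genes above 0. The depth in reads is unknown, so no counting interval is given. CUS replicate 3 stands apart in this way, and control replicate 3 had 212 FPKM of the choroid plexus transcript Ttr against at most 38.8 in the others. Values without one or the other are given beside the results for Per1, Per2 and Ciart.

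Ordered by their mean FPKM over the 9 libraries, a scale per length on which genes can be compared, the genes ran from Cry2 (40.2) through Per1 (28.4), Npas2 (17.6), Ciart (16.7), Per2 (11.2), Per3 (11.1) and Clock (8.07) to Cry1 (6.14). At the top, Cry2 was exceeded by 14.5% of kept genes, and at the bottom Cry1 by 60.7%. Only 2 of the 7 neighbouring pairs had ranges that did not overlap over the 9 libraries, Per3 above Clock and Clock above Cry1. Npas2 was above Ciart in 6 of 9 libraries and Per2 above Per3 in 5 of 9, so neither pair is ordered beyond its spread. Per1 was above Npas2 in each of the 9 libraries, although their ranges touched across libraries, and Cry2 was above Per1 in 8. The exception was running replicate 2, where Per1 had 45.03 and Cry2 41.68 FPKM. Without CUS replicate 3, 4 neighbouring pairs did not overlap.

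The spread of the genes differed widely. Per1 covered a 2.46-fold range over the libraries, from 18.34 to 45.03 FPKM, Per2 a 1.81-fold range and Ciart a 1.45-fold range. Clock, at 7.41 to 8.48 FPKM, covered a 1.14-fold range and Cry2 a 1.18-fold range. Within groups, the SD of log2(FPKM + 0.5), the scale of all tests here, was 0.245 for Per1 and 0.185 for Ciart. It was 0.0538 for Clock and 0.0484 for Cry2, and the median over all kept genes was 0.112. Equal fold differences are therefore resolved less well for Per1 and Ciart than for the other 6 genes.

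**Figure D1:**
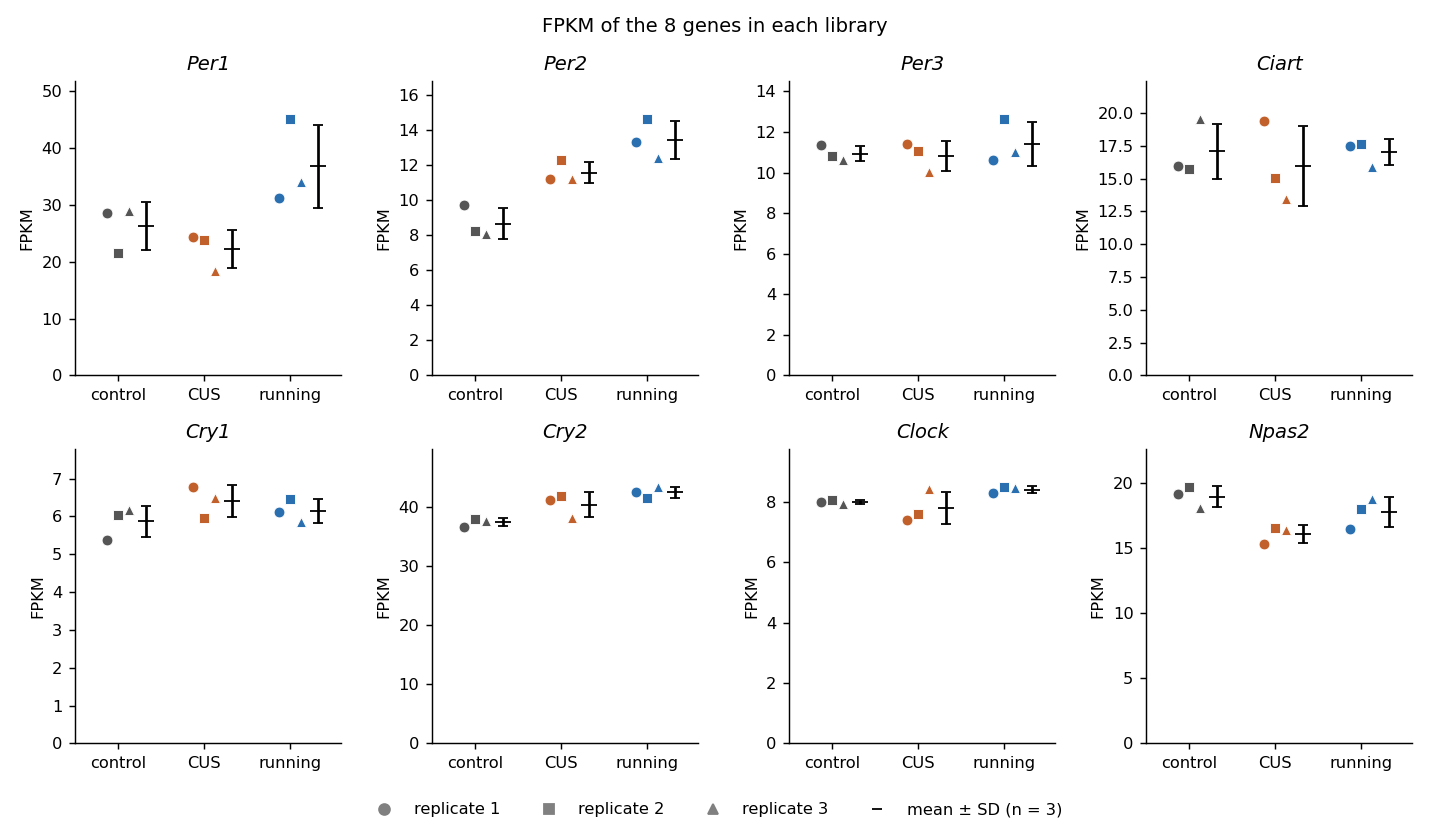
FPKM (vertical axes, each from 0) of the 8 genes in the control, CUS and running libraries; symbols mark replicates 1 to 3 and the black bars the mean ± SD (n = 3). The running libraries of Per1 lie above the other 6, at 31.27 to 45.03, and the 3 groups of Per2 stand one above the other without overlap.

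Each comparison was tested in 1 limma model of all 9 libraries over the 14013 genes, with p-values adjusted by Benjamini-Hochberg over all of them, and calls were made where the adjusted p was under 0.05. In CUS against control the call held 0 of the 8 genes (0.00714% of all genes were called), in running against CUS 0 (0.00714%) and in running against control 0 (0.0214%). At an unadjusted p under 0.05 the limma fit held 2 of the 8 in CUS against control (14.7% of all genes), 2 in running against CUS (23.5%) and 3 in running against control (11.6%). Those of the 2 running comparisons were all higher in running mice, which held for 7.74% and 5.15% of all genes. The 3 libraries of each group did not overlap for 3 of the 8 genes in CUS against control (19.7% of all genes), 2 in running against CUS (24.9%) and 4 in running against control (22.4%). Again those 2 and 4 genes were higher in running mice, as were 8.99% and 10.5% of all genes. The median log2 difference of the 8 genes was -0.025 in CUS against control, where all kept genes had 0.022. It was 0.10 in running against CUS and 0.065 in running against control, where all kept genes had -0.033 and -0.019. The comparisons share libraries in pairs and are not independent of each other.

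Among the repressor genes of the loop, Per2 had its lowest values in controls, intermediate values in CUS and its highest values in running mice. Per2 (gene ID 18627, chromosome 1, 91415977 to 91459351), a core repressor, had 9.70, 8.22 and 8.07 FPKM in the control libraries. It had 11.22, 12.28 and 11.20 FPKM in the CUS libraries, and 13.29, 14.60 and 12.41 FPKM in the running libraries. The 3 groups did not overlap, and each running library was above each CUS library, which in turn was above each control library. The means were 8.66 ± 0.901, 11.6 ± 0.618 and 13.4 ± 1.10 FPKM (SD, n = 3 each).

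For running against control, the log2 difference of Per2 was 0.61 (SE 0.0862, 95% interval 0.42 to 0.80), a ratio of means of 1.55. By p it ranked 6 of 14013 genes, and its limma adjusted p of 0.0586 did not pass the threshold. The same difference passed without control replicate 1 (limma adjusted p = 0.0373) and without CUS replicate 3 (limma adjusted p = 0.0444). Without control replicate 3 it was 0.56 (limma adjusted p = 0.199). It passed when only those 2 groups were fitted (limma adjusted p = 0.0368), with library quality weights (limma adjusted p = 0.0175) and after a correction for GC content and transcript length (limma adjusted p = 0.0230). Over all alternatives the log2 difference of Per2 lay between 0.55 and 0.69 and the adjusted p between 0.0175 and 0.273. Between CUS and control, the difference of Per2 was 0.40 on the log2 scale (SE 0.0862) and ranked 42 of 14013 (limma adjusted p = 0.234). Without CUS replicate 3 this difference was 0.42 (limma adjusted p = 0.3425). Between running and CUS the log2 difference of Per2 was 0.21 (SE 0.0862, limma adjusted p = 0.185). It was 0.11 after the correction for GC content and transcript length (limma adjusted p = 0.526) and 0.31 after rescaling to TPM (limma adjusted p = 0.120). Without CUS replicate 3 it was 0.18 (limma adjusted p = 0.326).

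Per1 did not follow the order of Per2. Per1 (gene ID 18626, chromosome 11, 69095108 to 69109965), the period gene with the fastest induction, had 28.65, 21.47 and 28.94 FPKM in controls. In the CUS libraries Per1 had 24.42, 23.74 and 18.34 FPKM, and in the running libraries 31.27, 45.03 and 34.06 FPKM. The running libraries were the highest 3 of the 9, CUS replicate 3 was the lowest, and controls and CUS overlapped because control replicate 2 lay below CUS replicates 1 and 2. The means were 26.4 ± 4.23 in controls, 22.2 ± 3.33 in CUS and 36.8 ± 7.27 FPKM in running mice.

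The log2 difference of Per1 between running and CUS was 0.71 (SE 0.157, 95% interval 0.36 to 1.06), a ratio of means of 1.66 and the largest difference of the 8 genes in any of the 3 comparisons. It ranked 159 of 14013 genes and did not pass (limma adjusted p = 0.0776). It passed without CUS replicate 2 (limma adjusted p = 0.0327, where 10.8% of all genes were called) and with library quality weights (limma adjusted p = 0.0233, where 15.5% were). Those weights were 2.61, 0.575 and 0.244 for CUS replicates 1, 2 and 3, so replicate 1 dominated the CUS group. Without CUS replicate 3 the difference of Per1 between running and CUS was 0.58 (limma adjusted p = 0.126), and without running replicate 2 it was 0.56 (limma adjusted p = 0.181). Between running and control Per1 differed by 0.47 on the log2 scale (limma adjusted p = 0.300), and between CUS and control by -0.24 (limma adjusted p = 0.453), with the same SE. The latter was -0.11 without CUS replicate 3 and -0.38 without control replicate 2.

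Per3 had all 9 libraries between 10.01 and 12.62 FPKM. Per3 (gene ID 18628, chromosome 4, 150997018 to 151044707) is a period gene that is not needed for the loop to run. It had 10.9 ± 0.376 FPKM in controls, 10.8 ± 0.740 in CUS and 11.4 ± 1.06 in running mice, and its groups overlapped in each comparison. The log2 differences were -0.01, 0.07 and 0.05 (SE 0.0786) for CUS against control, running against CUS and running against control. Their 95% intervals were -0.19 to 0.16, -0.10 to 0.24 and -0.12 to 0.23. The second lay below the log2 difference of 0.71 of Per1 in running against CUS (95% interval 0.36 to 1.06). The third lay below that of 0.61 of Per2 in running against control (95% interval 0.42 to 0.80). These intervals are not adjusted for the number of genes. Per3 shares 41014 bases with Camta1 on the same strand, which had 49.8 to 55.3 FPKM, and whether fragments were split between them is not given in the sources used here.

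Ciart, the fourth repressor, was the gene with 3 E-boxes shown above, and its libraries differed within groups rather than between them. Ciart (gene ID 229599, chromosome 3, 95878500 to 95882257) had 15.99, 15.77 and 19.52 FPKM in controls, 19.37, 15.06 and 13.47 FPKM in CUS, and 17.51, 17.66 and 15.86 FPKM in running mice. The CUS libraries alone reached from the lowest value of all 9 to nearly the highest. The log2 differences were -0.10, 0.10 and -0.002 (SE 0.123), with limma adjusted p of 0.679, 0.645 and 0.998. Without control replicate 3 the first and the last were -0.0083 and 0.095, and without CUS replicate 3 the first and the second gave 0.0058 and -0.0076. An antisense gene that covers Ciart, C920021L13Rik, was listed at 0 in each library, as was D930015M05Rik, which lies opposite Cry2.

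**Figure D2:**
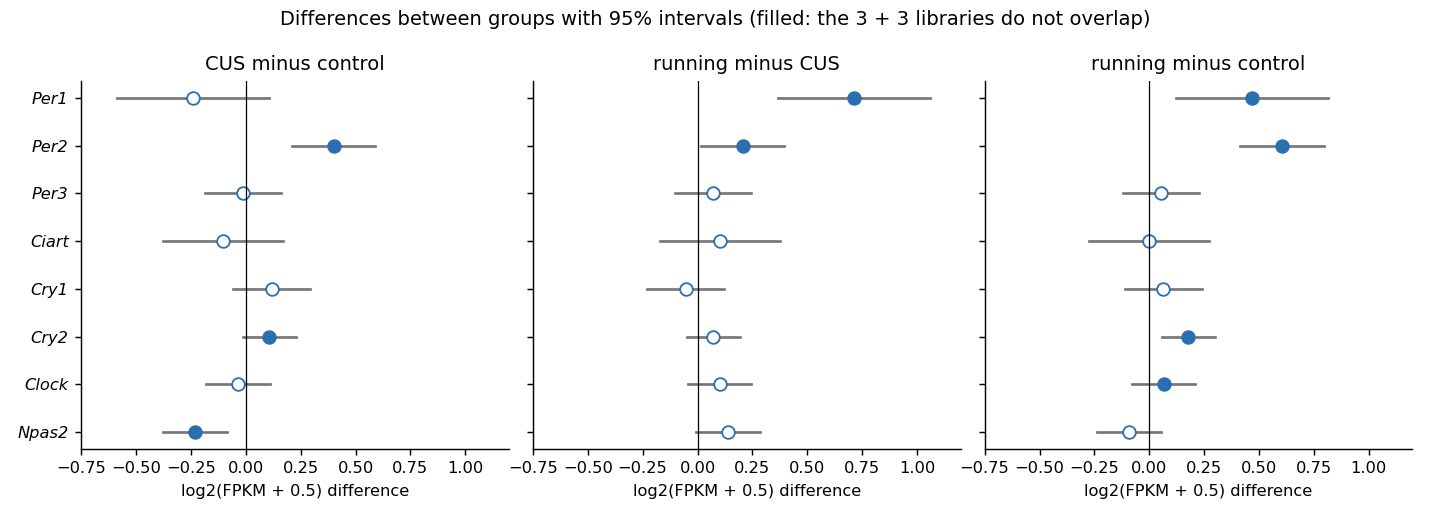
Differences in log2(FPKM + 0.5) between groups (horizontal axes) for the 8 genes, with 95% intervals of the limma fit; filled points mark genes whose 3 + 3 libraries do not overlap. Per1 and Per2 have filled points on the right in both comparisons of the running group, and Npas2 has one on the left in CUS minus control.

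The balance of Per1 and Per2 was compared through their ratio within each library, which does not depend on library scale. The FPKM ratio of Per1 to Per2 was 2.95, 2.61 and 3.59 in controls, 2.18, 1.93 and 1.64 in CUS, and 2.35, 3.08 and 2.75 in running mice. Each CUS library lay below each library of the other 2 groups, while controls and running mice overlapped. The log2 ratio differed by -0.64 between CUS and control and by 0.51 between running and CUS, each with an exact two-sided permutation p = 0.1, the smallest that 3 against 3 libraries allow, and by -0.14 between running and control (exact permutation p = 0.5). Without CUS replicate 3 the difference between running and CUS was 0.40, and without running replicate 2 it was 0.41 (exact permutation p = 0.2 each). The difference between running and control lay between -0.24 and -0.018 when 1 library was left out, at -0.018 without control replicate 3, -0.036 without running replicate 1, -0.24 without control replicate 2 and -0.23 without running replicate 2. The log2 ratio of Per1 to Per3 differed by -0.23 between CUS and control (exact permutation p = 0.3). It differed by 0.64 between running and CUS and by 0.41 between running and control, without overlap (exact permutation p = 0.1 each). The first was -0.14 without control replicate 3 and -0.36 without control replicate 2. The last was 0.28 without control replicate 2 (exact permutation p = 0.2). Of the 15 ratio comparisons made, 9 had no overlap and reached that smallest p (adjusted exact permutation p = 0.167 over the 15). The share without overlap was not computed for ratios of other gene pairs.

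The ratio of Per2 to Per3 was 0.854, 0.758 and 0.759 in controls, 0.982, 1.11 and 1.12 in CUS, and 1.25, 1.16 and 1.13 in running mice. It had no overlap in any of its 3 comparisons, with log2 differences of 0.42 for CUS against control, 0.14 for running against CUS and 0.55 for running against control. The second was 0.079 without CUS replicate 1 (exact permutation p = 0.2) and 0.095 without running replicate 1 (exact permutation p = 0.4). As a share of the summed FPKM of the 3 period genes, Per1 held 57.1% ± 3.91 in controls, 49.6% ± 2.85 in CUS and 59.4% ± 2.83 in running mice (SD, n = 3 each). The share of Per2 was 18.9% ± 1.75, 26.1% ± 2.24 and 22.0% ± 1.96 in the same order. The sum itself was 46.0 ± 4.82 FPKM in controls, 44.6 ± 4.35 in CUS and 61.6 ± 9.27 in running mice.

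**Figure D3:**
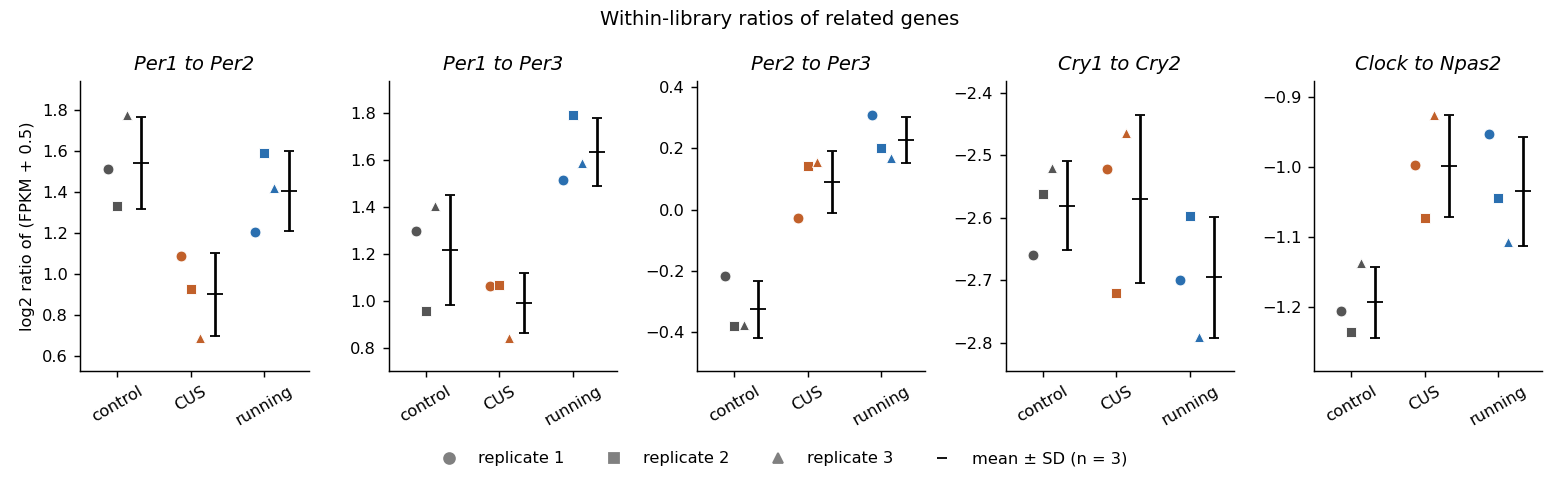
Log2 ratio of (FPKM + 0.5) between related genes within each library (vertical axes, which differ between panels and do not start at 0); symbols mark replicates and black bars the mean ± SD (n = 3). The 3 CUS libraries are the lowest for Per1 to Per2, and the 3 control libraries are the lowest for Per2 to Per3 and for Clock to Npas2.

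The cryptochromes, which inhibit CLOCK and BMAL1 directly, differed little. Cry2 (gene ID 12953, chromosome 2, 92403646 to 92434085) had 36.70, 38.11 and 37.78 FPKM in controls, 41.27, 42.02 and 38.14 FPKM in CUS, and 42.55, 41.68 and 43.41 FPKM in running mice. All 6 libraries of the CUS and running groups were above the 3 controls, CUS replicate 3 by only a small margin. The log2 difference of Cry2 was 0.18 between running and control (SE 0.0543, 95% interval 0.06 to 0.30, limma adjusted p = 0.268) and 0.11 between CUS and control (limma adjusted p = 0.368). After rescaling to TPM the latter was 0.04, and with quantile normalization it was 0.05. Cry1 (gene ID 12952, chromosome 10, 85131700 to 85185054) lay between 5.39 and 6.77 FPKM, and its groups overlapped in each comparison. Its means were 5.87 ± 0.418 in controls, 6.41 ± 0.418 in CUS and 6.15 ± 0.311 FPKM in running mice, with limma adjusted p between 0.467 and 0.786. The ratio of Cry1 to Cry2 was between 0.135 and 0.170 in all 9 libraries, and its log2 differences were 0.01, -0.13 and -0.11 (exact permutation p = 1, 0.3 and 0.2).

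Of the activators, Npas2 had lower values in CUS, while Clock stayed within a narrow range. Npas2 (gene ID 18143, chromosome 1, 39193702 to 39363240) had 19.13, 19.68 and 18.06 FPKM in controls. It had 15.29, 16.53 and 16.42 FPKM in CUS and 16.49, 18.01 and 18.78 FPKM in running mice. CUS libraries were all below controls, and running libraries overlapped both groups. The log2 difference of Npas2 was -0.23 between CUS and control (SE 0.0663, 95% interval -0.38 to -0.08, limma adjusted p = 0.257, rank 291 of 14013). Between running and CUS it was 0.14 (limma adjusted p = 0.234), and with library quality weights, where 15.5% of all genes were called, it was 0.20 (limma adjusted p = 0.0484). Between running and control it was -0.09 (limma adjusted p = 0.621).

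Clock (gene ID 12753, chromosome 5, 76209868 to 76305603) had 8.01, 8.07 and 7.94 FPKM in controls, 7.41, 7.60 and 8.41 FPKM in CUS, and 8.28, 8.48 and 8.45 FPKM in running mice. Running libraries were above each control, by 0.066 on the log2 scale (SE 0.0652, limma adjusted p = 0.732), and CUS replicate 3 was the only CUS library above the controls. The ratio of Clock to Npas2 was 0.419, 0.410 and 0.440 in controls, 0.485, 0.460 and 0.512 in CUS, and 0.502, 0.471 and 0.450 in running mice. Controls lay below all other libraries, with log2 differences of 0.19 for CUS and 0.16 for running against control (exact permutation p = 0.1 each, the smallest possible).

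**Figure D4:**
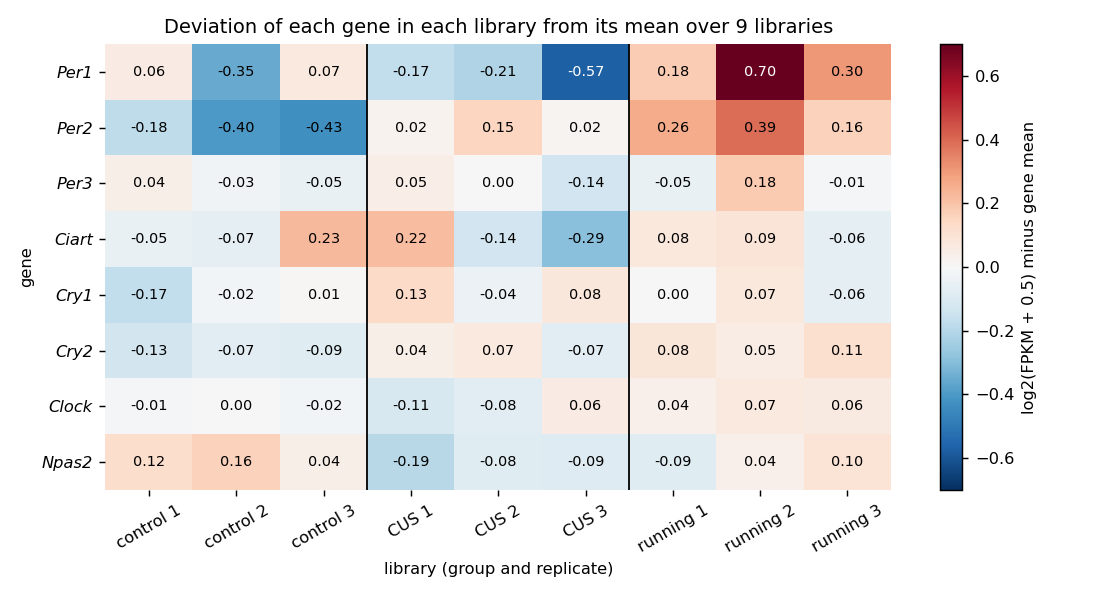
Each cell gives the log2(FPKM + 0.5) of a gene (rows) in a library (columns) with its 9-library mean subtracted, from blue (lower) to red (higher). Per1 has the widest range, from -0.57 in CUS replicate 3 to 0.70 in running replicate 2, and the row of Clock stays within -0.11 and 0.07.

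Whether the genes varied together between libraries of the same group was examined with deviations from group means, over 28 pairs and 9 libraries, with exact permutations within groups. Per1 and Per3 had a Pearson r of 0.82 (exact permutation p = 0.0463, adjusted p = 0.648 over the 28 pairs), a Spearman rho of 0.75 (exact permutation p = 0.0556, adjusted p = 0.691), and r = 0.88 without the 2 libraries farthest from the median of Per1. Npas2, an activator, and Ciart, a repressor, had an r of -0.74 (exact permutation p = 0.0324, adjusted p = 0.648), a rho of -0.70 (exact permutation p = 0.0741, adjusted p = 0.691), and r = -0.75 without the 2 farthest libraries. An r of like size was found for Clock and Ciart (-0.74, exact permutation p = 0.199) and for Cry2 and Clock (-0.80, exact permutation p = 0.222). Without the 2 farthest libraries these were -0.20 and -0.39. By Spearman the only pair with an unadjusted p under 0.05 was Per1 and Ciart, with a rho of 0.82 (exact permutation p = 0.0278, adjusted p = 0.691), an r of 0.57 (exact permutation p = 0.144, adjusted p = 0.691) and r = 0.29 without the 2 farthest libraries. After adjustment 0 of the 28 pairs passed by either measure, 2 passed by Pearson at an unadjusted p under 0.05, and the smallest p that the 216 permutations can give is 0.00463. The median r over the pairs was 0.04, and 15 of the 28 were above 0.

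Of 29 other genes of the clock loop and of its regulators, all 29 were kept, and 0 were called by limma in any of the 3 comparisons. At an unadjusted p under 0.05, 5 were higher and 2 lower in CUS than in controls, 3 higher and 1 lower in running than in CUS, and 2 higher and 2 lower in running than in controls, where 14.7%, 23.5% and 11.6% of all genes had such a p. Their medians were -0.006, 0.034 and 0.048 on the log2 scale. Bhlhe40, a repressor that competes for E-boxes, had the order of Per2, at 46.0 ± 4.75 FPKM in controls, 54.8 ± 5.69 in CUS and 71.7 ± 3.62 in running mice. Its log2 difference between running and control was 0.64 (SE 0.0905, limma adjusted p = 0.0586), between running and CUS 0.39 (limma adjusted p = 0.0776) and between CUS and control 0.25 (limma adjusted p = 0.286). Dbp, an E-box target and D-box activator, had another order, with 55.7 ± 1.64 FPKM in controls, 64.4 ± 4.70 in CUS and 52.7 ± 3.44 in running mice. Its log2 difference was 0.21 between CUS and control (limma adjusted p = 0.267) and -0.29 between running and CUS (limma adjusted p = 0.0783). Nr1d2, which encodes REV-ERBβ, had log2 differences from control of 0.15 in CUS and 0.16 in running mice (limma adjusted p = 0.270 and 0.280). Usp2, a deubiquitinase, had one of -0.21 between running and control (limma adjusted p = 0.265), and Huwe1, a ubiquitin ligase, one of 0.31 between running and CUS (limma adjusted p = 0.136). Arntl, the partner of CLOCK and NPAS2, had 13.7, 12.6 and 12.5 FPKM on average in controls, CUS and running mice.

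Some other gene lists also differed in level between the same libraries, and their part in the results above was not tested. Over all genes, in either direction, 14.7% had an unadjusted p under 0.05 in CUS against control. In running against CUS 23.5% did, and in running against control 11.6%. The limma call held 0.00714%, 0.00714% and 0.0214%. Counts near these shares, such as 1 of 8 endothelial genes in CUS against control, do not set a list apart. Of 26 kept immediate early genes, which respond to neuronal activity, 24 were lower in CUS than in controls (20 at an unadjusted p under 0.05, 0 called by limma). In running against CUS 25 of the 26 were higher (23 at an unadjusted p under 0.05, 0 called by limma). Their summed level was 638 to 942 FPKM in controls, 545 to 607 in CUS and 881 to 954 in running mice. Fos had 23.59, 12.08 and 23.03 FPKM in controls, 11.40, 8.75 and 5.86 in CUS, and 21.69, 24.26 and 24.27 in running mice. Control replicate 2, CUS replicate 3 and running replicate 1 were the lowest of their groups for both Fos and Per1. Running replicates 2 and 3 had nearly equal Fos, with 45.03 and 34.06 FPKM of Per1. A relation of Fos and Per1 was not tested. Of 22 glucocorticoid-induced genes, 21 were lower in CUS than in controls and 20 higher in running than in CUS, with 0 called by limma (10 and 9 at an unadjusted p under 0.05 in those directions). The list of 5 blood genes, haemoglobins and Alas2, had the group order of Per2, with summed levels of 493 to 875, 683 to 1040 and 972 to 1238 FPKM. All 5 were higher in CUS than in controls, in running than in CUS and in running than in controls. Of them 2, 2 and 5 had an unadjusted p under 0.05, and 0 were called by limma. Each of 10 oligodendrocyte genes was lower in CUS and in running mice than in controls (6 and 3 at an unadjusted p under 0.05, 0 called by limma), with summed levels of 650 to 1208, 494 to 725 and 572 to 645 FPKM. Microglial genes (9 of 9) were higher in CUS than in controls and lower in running than in CUS, with medians of 0.086 and -0.21 on the log2 scale (2 and 3 at an unadjusted p under 0.05, 0 called by limma). Of 8 endothelial genes 7 were lower in CUS (median -0.22) and 8 lower in running mice (median -0.20) than in controls, with 1 and 3 at an unadjusted p under 0.05 and 0 called by limma. Lists of neurons and astrocytes were mixed in direction. In CUS against control, 6 glutamatergic cortical neuron genes were higher and 4 lower. Higher and lower counts were 3 and 5 for inhibitory neurons, 3 and 6 for astrocytes and 2 and 5 for striatal projection neurons. In running against CUS they were 5 and 5, 5 and 3, 7 and 2, and 4 and 3 in that order of lists. In bulk tissue, fewer cells of a type and less RNA per cell cannot be told apart.

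For each of the 8 genes, the 2 genes with the most similar pattern were taken from 12369 candidates with a mean of at least 1 FPKM, by Pearson r of log2(FPKM + 0.5) over the 9 libraries. These correlations are descriptions of the best matches among many genes, and all genes of a library share its scale. Closest to Per1 were Zfp651 (r = 0.97, Spearman rho = 0.95) and Kdm6b, a histone H3K27 demethylase (r = 0.96, rho = 0.95). For their deviations from group means the r was 0.97 and 0.90. Kdm6b had 4.07 ± 0.614, 3.69 ± 0.844 and 5.84 ± 1.09 FPKM in controls, CUS and running mice, the same order of groups as Per1. Closest to Per2 were Serinc2, a membrane protein (r = 0.98, rho = 0.98), and Fastkd5, a mitochondrial RNA-processing protein (r = 0.97, rho = 0.93), with an r of deviations from group means of 0.82 and 0.66. Serinc2 had 2.87 ± 0.424, 4.67 ± 0.540 and 5.72 ± 0.223 FPKM in the same order.

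The closest genes of Per3 were Vps36 (r = 0.96) and Stat5b (r = 0.93), and those of Ciart were Suox (r = 0.93) and Gpr176, an orphan receptor (r = 0.92). For Cry1 they were Gmcl1 (r = 0.95) and Ifnar2, an interferon receptor subunit (r = 0.94), and for Cry2 Tent4a (r = 0.98) and Gart, an enzyme of purine synthesis (r = 0.96). For Clock they were Nebl (r = 0.95) and Acot5 (r = 0.95), and for Npas2 Rps6ka3, a kinase downstream of ERK (r = 0.93), and Angptl4, an inhibitor of lipoprotein lipase (r = 0.92). Spearman rho of these 12 matches lay between 0.78 and 0.98. The r of deviations from group means lay between 0.90 and 0.96, except for the matches of Npas2, where it was 0.76 and 0.85.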

How the data were processed

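RNA of 9 mPFC libraries was sequenced after oligo(dT) selection and random priming, per the labels' protocols, which name no step that marks the strand. The authors deposited FPKM values with 2 decimals. The submitters' processing notes list mm10 and the programs RSEM (1.2.12), Bowtie2 (2.2.5) and DESeq2 (1.4.5), without their roles or an annotation. Of 65389 rows, 30264 lacked an NCBI gene identifier and were at 0. Genes reaching 0.5 FPKM in 3 or more libraries were kept and analysed as log2(FPKM + 0.5), on which differences of low genes are understated, with limma 3.58.1 in R 4.3.3 (intensity trend, 6 residual degrees of freedom, prior median 4.71), a fit also tested on simulated data. Ratios and correlations used exact permutation tests. Replicates were numbered in order of listing. Genes named for their results were the 8 members, the 2 most similar to each (no predicted, Riken or Y-linked genes) and the 3 other clock genes with the smallest p per comparison. Markers of cell types, genes that overlap a member, Arntl and Fos are also named, chosen after their values were seen. The members and lists were chosen with earlier results of these data known. Coordinates and promoters are RefSeq on GRCm38.p6, and overlapping genes are from GENCODE M21. Alternatives were 2 other pseudocounts, no filter, TPM, quantile normalization, library weights, no trend, 2 groups only, each library left out and, chosen after seeing the data, removal of the trend with transcript length and GC content (98.2% of kept genes had both values).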

Additional observations from a re-analysis of the deposited data

How the results depend on the processing

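Of 432 values of the 24 member differences under 18 alternatives, 404 kept their direction and their side of the threshold, 8 passed it and 20 changed sign. Some alternatives cannot change a log2 difference and act only on its p. These are no filter, no trend, 2 groups only and leaving out a library of the group not compared. The count of 404 therefore overstates how well directions were tested. None of the 24 differences had passed in the main fit, so the values that changed sign all belong to differences not called there. With library weights the log2 differences of Per3 and Ciart were 0.035 and 0.11 in CUS against control and -0.0063 and -0.11 in running against CUS. After rescaling to TPM, Cry1 had 0.042 in running against CUS and Ciart 0.034 in running against control, and with quantile normalization Ciart had 0.000115. With the length and GC trend removed, Per3 and Clock had 0.069 and 0.032 in CUS against control and -0.033 and -0.0063 in running against CUS, and Ciart 0.061 in running against control. Leaving out 1 library, Per3 ranged from -0.052 to 0.039, from -0.0026 to 0.12 and from -0.017 to 0.10 in the 3 comparisons, and Ciart from -0.25 to 0.0058, from -0.0076 to 0.25 and from -0.055 to 0.095. The median of the 8 genes in CUS against control was -0.091 with TPM, 0.072 with library weights, 0.051 with the length and GC trend removed, and between -0.027 and 0.022 leaving out 1 library. In running against CUS it was 0.21 with TPM and 0.14 with quantile normalization. The count called in running against CUS was 2 with library weights (Per1 and Npas2, where 15.5% of all genes were called) and between 0 and 1 leaving out 1 library (Per1, without CUS replicate 2, where 10.8% were). In running against control it was 1, Per2, with library weights (1.05% of all genes), with 2 groups only (0.171%) and with the length and GC trend removed (0.102%), and between 0 and 1 leaving out 1 library (without control replicate 1 or CUS replicate 3). The log2 ratio difference of Cry1 to Cry2 in CUS against control lay between -0.041 and 0.087, and that of Clock to Npas2 in running against CUS between -0.077 and 0.000321, leaving out 1 library. The number of neighbouring levels without overlap lay between 2 and 4. Beyond construction (fewer libraries in a fit), the cause of these shifts was not tested. No paired analysis was possible because the numbers in the sample titles match for at most 1 pair of libraries between 2 groups.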
